A study of Mus musculus with 12 samples.

Results

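The genes described here are 37 imprinted genes of the mouse and close neighbours in their clusters, outside the Dlk1 to Dio3 region. They were listed by symbol, with earlier results of these data known. By genome position they form 15 clusters, some of a lone gene. Of the 37, 31 genes in 14 clusters had a probe set annotated to that gene alone, and these 31 were tested among 19938 genes. H19, Kcnq1ot1 and Zrsr1 were not analysed here, and Snrpn, Ube3a and Gnas were left out because their probe sets carried several symbols.

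Total RNA of a clone of D3, a mouse embryonic stem (ES) cell line, was hybridised to 12 Affymetrix arrays, 3 for each of 4 groups. ES cells at day 0 were undifferentiated, and embryoid bodies (EBs), aggregates grown in bacteriological dishes without leukaemia inhibitory factor, were taken at day 4. The other 2 groups were EBs given DMSO, the solvent, for 12 h, and EBs given all-trans retinoic acid (ATRA) at 5 µM for 12 h; the labels do not settle whether these 12 h lay within or after the 4 days. All groups share the D3 clone and so rest on 1 line, and the labels do not say whether the biological replicates came from separate cultures, so the p-values measure the spread between these samples, which may be technical.

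In imprinting, a gene is expressed mainly or only from the copy inherited from the mother or from the father, according to DNA methylation laid down in the germ line. Imprinted genes lie in clusters, often steered by a methylated control region and a long non-coding RNA, and many act on fetal growth, the placenta and metabolism. ES cells are known to carry imprints that can erode in culture, and retinoic acid acts through nuclear receptors that bind DNA. The arrays do not tell parental copies apart, so each value is the sum over both. In bulk RNA, fewer cells of a type and less RNA per cell cannot be told apart.

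Promoters of 4 genes are printed 5′ to 3′, those of Peg3 and Igf2, which rose most in day 4 EBs against ES cells, and of Ascl2 and Mest, which fell most with ATRA against DMSO. Each is a window of 300 bases, 250 before and 50 after the annotated start, from RefSeq on GRCm38.p6. In the Peg3 window (chr7:6730370-6730669, minus strand) the capitals mark CpG, the dinucleotide that is methylated at imprinted control regions, and there are 13. This window shares 263 bases with that of Usp29, which is read from the opposite strand, and the start region of both genes is known as a control region methylated on the maternal copy. In the Ascl2 window (chr7:142969215-142969514, minus strand) the capitals mark 23 CpG. Mest has 3 windows, of which 2 nearly identical ones hold TGCCGC; in the window printed (chr6:30737800-30738099, plus strand) the capitals mark 2 matches to TGCCGC on the other strand, the hexamer bound by ZFP57, a zinc finger protein that keeps imprints methylated. In the Igf2 window that holds a match to AGGTCA, 1 of the 4 windows of that gene (chr7:142666767-142667066, minus strand), they mark that match, on the other strand; AGGTCA is the core site that many nuclear receptors bind.
Peg3: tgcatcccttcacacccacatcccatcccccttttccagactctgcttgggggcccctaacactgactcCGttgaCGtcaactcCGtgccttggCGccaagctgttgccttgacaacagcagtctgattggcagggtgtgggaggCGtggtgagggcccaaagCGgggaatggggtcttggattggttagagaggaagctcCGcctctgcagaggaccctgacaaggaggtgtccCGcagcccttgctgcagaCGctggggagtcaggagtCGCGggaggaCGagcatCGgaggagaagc
Ascl2: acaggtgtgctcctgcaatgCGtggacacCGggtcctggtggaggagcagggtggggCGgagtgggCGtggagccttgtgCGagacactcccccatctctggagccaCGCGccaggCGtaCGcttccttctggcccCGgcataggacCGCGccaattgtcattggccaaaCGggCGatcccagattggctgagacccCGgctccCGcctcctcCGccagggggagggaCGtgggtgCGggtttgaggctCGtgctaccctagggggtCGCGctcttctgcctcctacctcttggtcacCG
Mest: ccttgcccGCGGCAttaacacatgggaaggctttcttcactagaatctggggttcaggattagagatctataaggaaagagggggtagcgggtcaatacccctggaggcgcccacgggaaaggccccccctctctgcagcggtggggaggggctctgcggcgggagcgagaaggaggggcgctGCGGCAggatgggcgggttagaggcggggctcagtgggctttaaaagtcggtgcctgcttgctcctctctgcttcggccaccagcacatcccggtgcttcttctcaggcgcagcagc
Igf2: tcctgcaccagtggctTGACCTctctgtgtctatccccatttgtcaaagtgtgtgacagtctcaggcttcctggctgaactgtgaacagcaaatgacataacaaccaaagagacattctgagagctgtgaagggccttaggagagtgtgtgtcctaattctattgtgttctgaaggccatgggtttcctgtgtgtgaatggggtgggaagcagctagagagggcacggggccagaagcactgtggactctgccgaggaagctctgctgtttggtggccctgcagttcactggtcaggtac
The promoter table held 36 windows of 25 of the tested genes. TGCCGC, searched on both strands, was present in windows of 10 of the 25 genes (40.0%), against 13.05% of 27025 genes in the whole table. The windows of these genes were also richer in CpG, with a median of 17 against 7 over all windows. Counted by window, the share was 30.56% of the 36, against 11.61% of 32851. Among windows with at least 10 CpG, 11 of 26 held TGCCGC, against 22.46% of 14281. The 11 include the 2 nearly identical windows of Mest. AGGTCA, on both strands, was present for 3 of the 25 genes (12.0%), Igf2, Igf2r and Airn, against 18.13% of all genes. TGCCGC itself contains a CpG and AGGTCA does not, and a match is a description of the letters, not a binding site.

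Day 4 EBs differed from undifferentiated ES cells in 20 of the 31 genes, 14 higher and 6 lower, at an adjusted p under 0.05 in limma; of all genes tested, 34.7% were called, 17.8% higher and 16.9% lower. Peg3 and Igf2, both paternally expressed, rose most, and Osbpl5, Phlda2 and Airn fell most. For 22 of the 31 genes the arrays of the 2 groups did not overlap, against 41.3% of all genes. Genes of higher signal were called more often in general: above the median of gene means 15 of 19 imprinted genes were called, against 48.83% of genes there, and below it 5 of 12, against 20.63%. The 5 were Zim1, Mkrn3, Airn, Ascl2 and Osbpl5. Their means over the 12 arrays were 6.76, 7.23, 7.33, 8.14 and 8.26, against a median of gene means of 8.35. The median absolute difference was 0.29 on the log2 scale, against 0.12 over all genes.

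**Figure D1:**
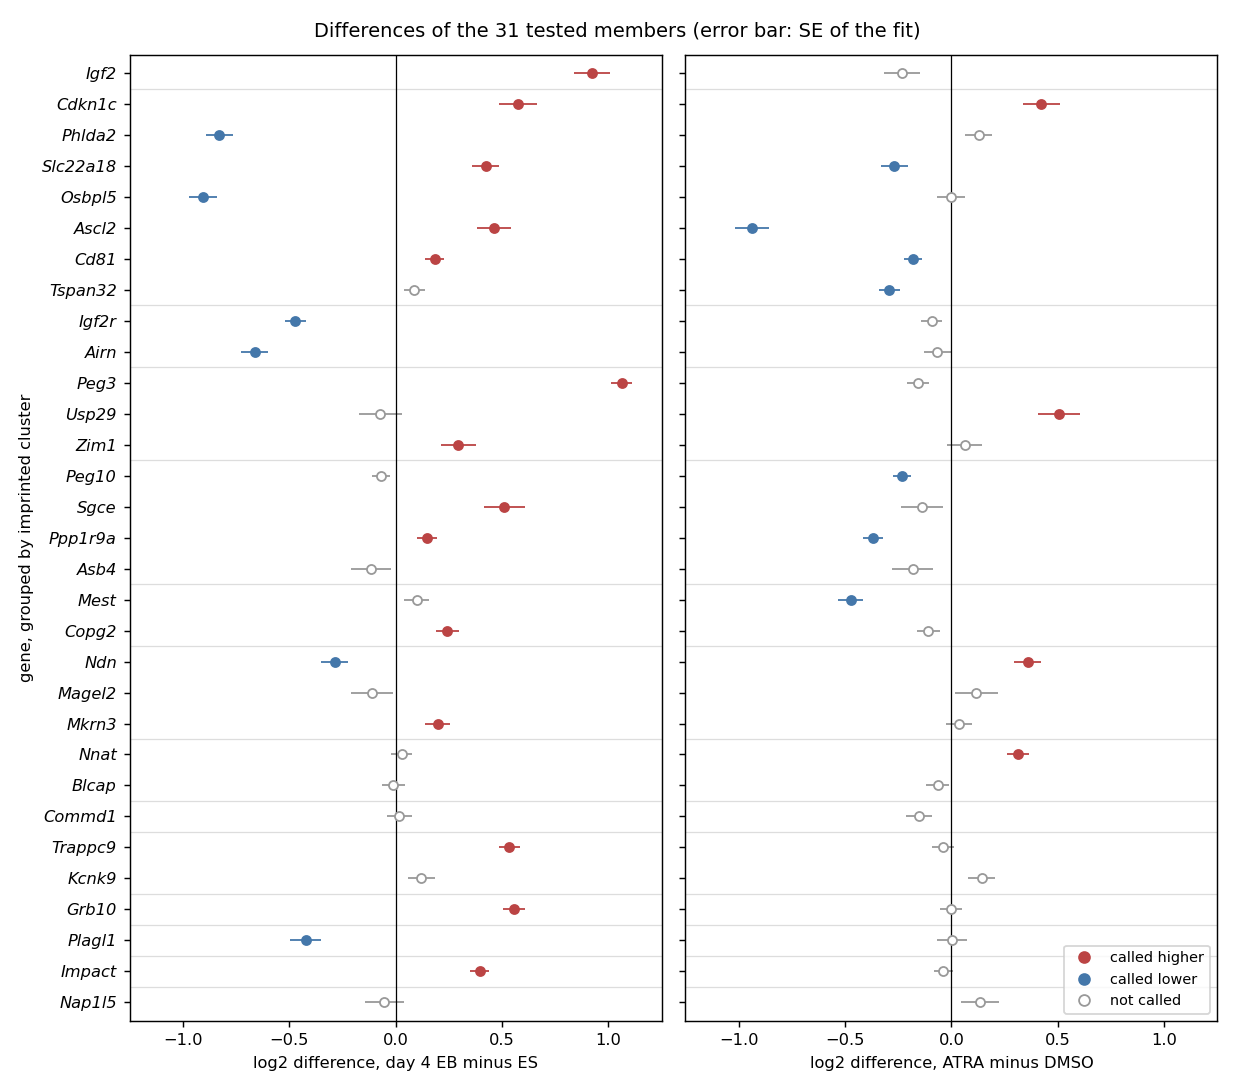
Log2 differences of the 31 imprinted genes, day 4 EB minus ES and ATRA minus DMSO, with bars of ± 1 SE from the fit over 12 arrays (filled, called; open, not called). Day 4 EB minus ES runs between -0.90 for Osbpl5 and 1.06 for Peg3, and ATRA minus DMSO between -0.94 for Ascl2 and 0.50 for Usp29.

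Peg3, a zinc finger protein gene known for roles in fetal growth and maternal behaviour, had log2 signals of 10.56, 10.63 and 10.61 in day 4 EBs, against 9.53, 9.54 and 9.53 in ES cells. The EB arrays all lay above the ES arrays. The difference was 1.06 ± 0.05 (SE, n = 3 each), a 2.09-fold rise (adjusted p = 8.52e-09). Its neighbour Zim1, a maternally expressed zinc finger gene, rose by 0.30 ± 0.08 (adjusted p = 0.0135). Usp29, a deubiquitinase family gene that shares the Peg3 start region, differed by -0.07 ± 0.10 (adjusted p = 0.654).

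Igf2, which encodes a fetal growth factor, stood at 9.35, 9.70 and 9.53 in day 4 EBs and at 8.56, 8.65 and 8.60 in ES cells, with no overlap. The rise was 0.92 ± 0.09, or 1.90-fold (adjusted p = 3.36e-06). Igf2r, the receptor that takes IGF2 to lysosomes for breakdown, fell by 0.47 on the log2 scale with an SE of 0.05 (adjusted p = 7.85e-06). Airn, the long non-coding RNA that silences Igf2r on the paternal copy and overlaps it on the other strand, stood at 7.01, 7.03 and 7.16 in day 4 EBs, against 7.86, 7.66 and 7.67 in ES cells. Both genes of this cluster were thus lower in every EB array than in every ES array, Airn with a difference of -0.66 ± 0.06 (adjusted p = 3.63e-06). The sources used here do not say whether the probe sets tell the strands apart. Grb10, an adaptor that dampens signalling of the insulin and IGF receptors, had 10.96, 10.91 and 10.87 in day 4 EBs and 10.39, 10.37 and 10.31 in ES cells, a rise of 0.56 ± 0.05 (adjusted p = 3.02e-06). Plagl1, a zinc finger transcription factor known to regulate other imprinted genes, fell by 0.42 with an SE of 0.07 (adjusted p = 0.00048).

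Of the Kcnq1ot1 domain, which a long non-coding RNA silences on the paternal copy, 6 of 7 genes changed, 4 higher and 2 lower in EBs. Of all genes 34.7% were called there. Osbpl5, an oxysterol-binding-protein relative, had 8.09, 8.11 and 7.99 in day 4 EBs, against 8.84, 8.95 and 9.11 in ES cells. Phlda2, a pleckstrin-homology gene that restrains placental growth, had 11.71, 11.89 and 11.93 in day 4 EBs, against 12.66, 12.67 and 12.69 in ES cells. These were the genes that fell, with differences of -0.90 ± 0.07 and -0.83 ± 0.06 (adjusted p = 3.47e-07 and 6.64e-07), each with no overlap. Cdkn1c, the cyclin-dependent kinase inhibitor p57, had 9.95, 9.72 and 9.93 in day 4 EBs and 9.23, 9.34 and 9.31 in ES cells. Ascl2, a basic helix-loop-helix factor needed for the spongiotrophoblast of the placenta, had 8.29, 8.35 and 8.55 in day 4 EBs and 7.97, 7.89 and 7.94 in ES cells. Both were higher in every EB array, Cdkn1c by 0.58 ± 0.09 (adjusted p = 0.000227) and Ascl2 by 0.46 ± 0.08 (adjusted p = 0.000629). Slc22a18, a transporter-like gene, rose by 0.42 ± 0.06 and Cd81, a tetraspanin, by 0.18 ± 0.04. Tspan32, another tetraspanin, differed by 0.09 ± 0.05 (adjusted p = 0.2).

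In the other clusters 7 more genes changed. Sgce, or epsilon-sarcoglycan, had 10.28, 10.53 and 10.46 in day 4 EBs, against 10.15, 9.72 and 9.87 in ES cells, a rise of 0.51 ± 0.10 (adjusted p = 0.00118). Trappc9, a subunit of a vesicle trafficking complex, had 9.91, 9.83 and 9.88 in day 4 EBs, against 9.32, 9.31 and 9.38 in ES cells, a rise of 0.54 ± 0.05 (adjusted p = 3.52e-06). For both, every EB array lay above every ES array. Smaller rises were seen for Impact, a regulator of translation under amino acid shortage (0.40), Copg2, a coatomer subunit (0.24), Mkrn3, a RING finger gene (0.20), and Ppp1r9a, or neurabin (0.15, with 9.20, 9.32 and 9.25 in day 4 EBs and 9.08, 9.14 and 9.11 in ES cells), while Ndn, the MAGE family gene necdin, fell by 0.29. Peg10, a retrotransposon-derived gene needed in the placenta, Mest, an alpha/beta hydrolase gene, and Nnat, a small membrane protein gene of brain and endocrine tissue, were not called, at -0.07, 0.10 and 0.03. Asb4, Blcap, Commd1, Kcnk9, Magel2 and Nap1l5 were called neither here nor between the EB groups. Over the 12 arrays Asb4, an ankyrin repeat gene, lay between 5.71 and 6.31, Kcnk9, a potassium channel gene, between 6.73 and 7.13, and Nap1l5, of the nucleosome assembly protein family, between 6.41 and 6.87. Magel2, of the MAGE family, lay between 7.06 and 7.56, Blcap between 8.70 and 9.003, and Commd1, known for its part in copper handling, between 8.41 and 8.67. The calls of Mkrn3, Zim1 and Ppp1r9a did not hold in every fit: Mkrn3 was at 0.17 without ES replicate 2 (adjusted p = 0.0731), Zim1 at 0.27 without ES replicate 3 (adjusted p = 0.0541), and Ppp1r9a at 0.12 to 0.15 without ES replicate 1, ES replicate 3, EB replicate 2 or EB replicate 3 (adjusted p 0.0595 to 0.0923). Ndn was at -0.19 with array weights, still called.

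**Figure D2:**
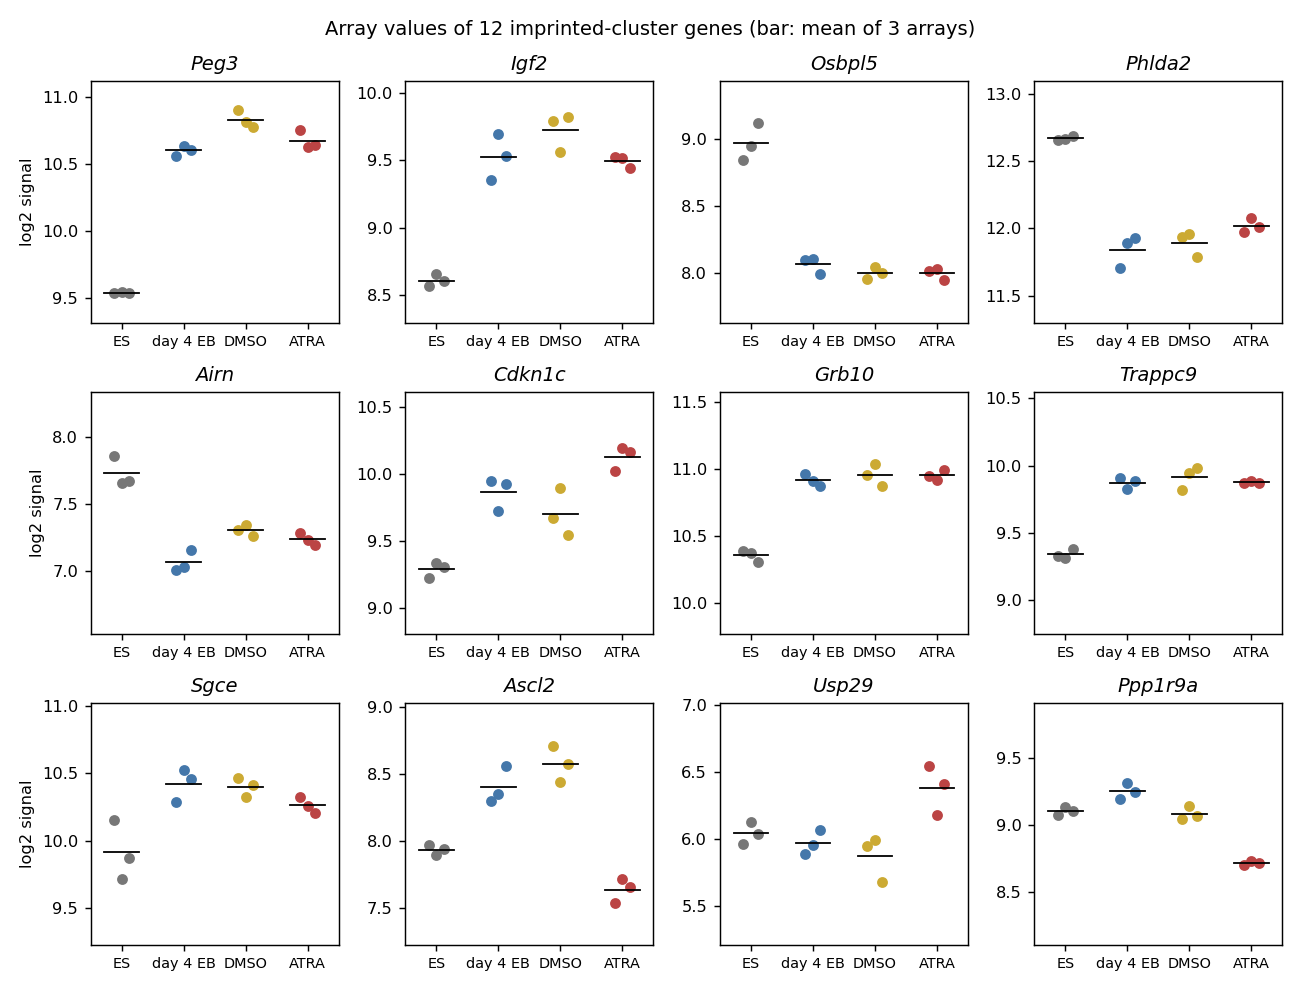
Log2 signal in each of the 12 arrays for the 12 genes called with a difference of at least 0.5 on the log2 scale in some comparison; points are arrays, in the order ES, day 4 EB, DMSO and ATRA. Peg3 lies between 9.53 and 9.54 in the ES arrays and at 10.56 or above in all others, and Ascl2 lies at 7.54 to 7.72 with ATRA.

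Cell type markers moved in the same step. All 13 tested markers of visceral and other extraembryonic endoderm were higher in EBs, with a median level per array of 10.02 to 10.33 in day 4 EBs, against 8.82 to 9.11 in ES cells. Of 14 tested fibroblast markers 11 were lower and 0 higher, with medians of 8.24 to 8.37 in day 4 EBs, against 9.55 to 9.75 in ES cells. Of 10 trophoblast markers 3 were higher (Eomes, Krt8 and Krt18) and 0 lower. Of 7 ES cell markers, Sox2 was higher, Klf4 lower and 5 not called. The median level of this list was that of Sox2 itself, at 12.93 to 13.08 in day 4 EBs and 12.61 to 12.80 in ES cells. The median log2 difference of the 7 was -0.05. Of 8 neural markers 2 were higher and 3 lower, and of 8 mesoderm and blood markers Cdh5 was higher and Pecam1 lower. Array values have no zero, so no marker can be called absent. The part of these cell types in the rise or fall of any imprinted gene was not tested.

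**Figure D3:**
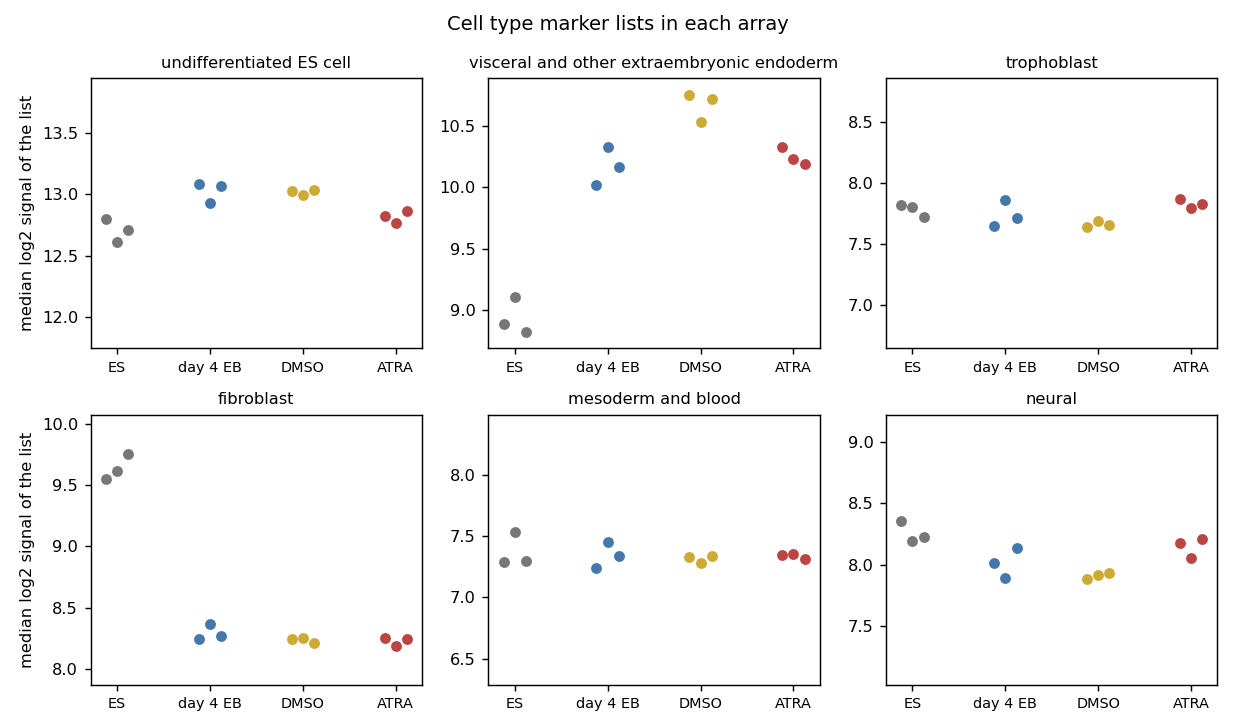
Median log2 level of 6 marker lists in each of the 12 arrays, in the order ES, day 4 EB, DMSO and ATRA. The endoderm list lies at 8.82 to 9.11 in ES cells and at 10.02 to 10.76 in all EB groups, and the fibroblast list at 9.55 to 9.75 in ES cells and at 8.19 to 8.37 in all EB groups.

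EBs given DMSO were compared with day 4 EBs, to measure the difference that goes with the solvent and, if the 12 h came after day 4, with the added hours. No imprinted gene was called (0 of 31), against 0.747% of all genes (0.537% higher and 0.211% lower); at an unadjusted p under 0.05 limma gave 6 of 31 (19.35%), against 16.33% of all genes. Differences ran between -0.19 for Plagl1 and 0.24 for Airn, and for 7 of 31 genes the arrays did not overlap, against 22.4% of all genes. The smallest adjusted p was that of Peg3, which had 10.90, 10.81 and 10.77 in DMSO-treated EBs and 10.56, 10.63 and 10.61 in day 4 EBs (0.23 ± 0.05, adjusted p = 0.0614). Airn had 7.31, 7.34 and 7.26 in DMSO-treated EBs and 7.01, 7.03 and 7.16 in day 4 EBs (0.24 ± 0.06, adjusted p = 0.101). Neither gene's arrays overlapped between the groups. Peg3 was called under some other settings, and Airn without ES replicate 1 (adjusted p = 0.04998). The count over all genes, 149, rests on few arrays: it was 0 without EB replicate 1, 0 without DMSO replicate 1, 2 without DMSO replicate 3, 33 without EB replicate 2, 48 without EB replicate 3, 56 to 74 without ES replicate 3 or any of the ATRA arrays, and 237 without ES replicate 1. Of the 13 endoderm markers 5 were higher with DMSO, with medians of 10.53 to 10.76 against 10.02 to 10.33 in day 4 EBs.

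ATRA-treated EBs were set against DMSO-treated EBs to ask what 12 h of retinoic acid changed. Of the 31 genes 11 changed, 4 higher and 7 lower with ATRA, against 13.3% of all genes (6.26% higher and 7.05% lower). Ascl2 fell most, and Usp29, Cdkn1c, Ndn and Nnat rose. For 20 of 31 genes the arrays of the groups did not overlap, against 39.6% of all genes, and 1 gene, Ascl2, passed 1.5-fold. The median absolute difference was 0.14 on the log2 scale, against 0.09 over all genes. By level, 7 of 19 genes above the median of gene means were called, against 18.99% of genes there, and 4 of 12 below it, against 7.644%. The 4 below it were Usp29, Tspan32, Nnat and Ascl2, with means over the 12 arrays of 6.07, 7.44, 7.97 and 8.14.

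Ascl2 had 7.54, 7.72 and 7.65 with ATRA, against 8.71, 8.44 and 8.57 with DMSO. All 3 ATRA arrays lay below every other array of the study, ES cells included. The difference was -0.94 ± 0.08, or 1.92-fold (adjusted p = 8.17e-06). Cdkn1c moved the other way, with 10.02, 10.19 and 10.17 with ATRA and 9.68, 9.89 and 9.55 with DMSO, and no overlap (0.42 ± 0.09, adjusted p = 0.00641). Ascl2 and Cdkn1c are both listed as maternally expressed genes of the Kcnq1ot1 domain. There 5 of 7 genes changed, against 13.3% of all genes. Beside Ascl2 and Cdkn1c, Tspan32 fell by 0.29, Slc22a18 by 0.27 and Cd81 by 0.18. Phlda2 (0.13, adjusted p = 0.241) and Osbpl5 (adjusted p = 0.998) were not called. Tspan32 (adjusted p = 0.0014) held in every fit without an array. Slc22a18 did not, at -0.26 to -0.21 without DMSO replicate 2, DMSO replicate 3, ATRA replicate 1 or ATRA replicate 3 (adjusted p 0.0556 to 0.0701), nor did Cd81, at -0.18 to -0.15 without DMSO replicate 3, ATRA replicate 1 or ATRA replicate 3 (adjusted p 0.0607 to 0.0701).

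Of 5 other genes measured between Ascl2 and Osbpl5, Tssc4, Trpm5, Kcnq1, Nap1l4 and Cars, 0 were called with ATRA, against 13.3% of all genes. With so few genes a count of 0 is near that share, and these 5 were added after their values were seen. In day 4 EBs 1 was called, Cars (0.23 ± 0.05, adjusted p = 0.00187 in limma), against 34.7% of all genes. Some of the 5, Kcnq1 and Tssc4 among them, are known as imprinted in some tissues too. With ATRA the 3 genes at the Ascl2 end were all lower, and Cdkn1c, which was higher, lay next in order to Slc22a18, which was lower.

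**Figure D4:**
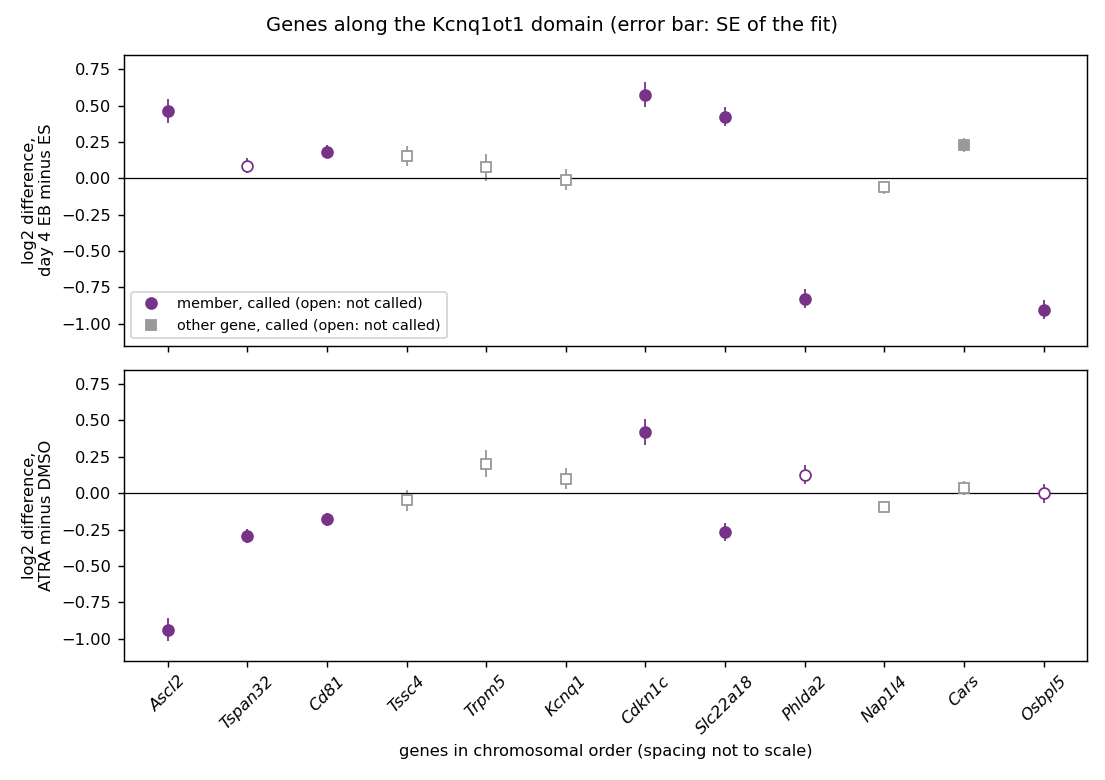
Log2 differences along the Kcnq1ot1 domain, 7 listed genes and 5 others in their order on the chromosome (not to scale), day 4 EB minus ES (upper) and ATRA minus DMSO (lower), with bars of ± 1 SE; open symbols were not called. With ATRA, Ascl2 lies at -0.94, Tspan32 at -0.29, Cd81 at -0.18, Cdkn1c at 0.42 and Slc22a18 at -0.27, and Osbpl5 lies at -0.90 in day 4 EBs minus ES.

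Usp29 had 6.54, 6.18 and 6.41 with ATRA, against 5.95, 5.99 and 5.68 with DMSO, so that all ATRA arrays were higher (0.50 ± 0.10, adjusted p = 0.0046). These are low signals, as its mean over all arrays was 6.07, against a median of gene means of 8.35. Peg3, from whose start region Usp29 is read the other way, had 10.75, 10.62 and 10.64 with ATRA and 10.90, 10.81 and 10.77 with DMSO, also with no overlap (-0.16 ± 0.05, adjusted p = 0.0593). Peg3 was not called, and whether the 2 genes differ from each other in response was not tested. Ndn rose by 0.36 ± 0.06 (adjusted p = 0.00242) and Nnat by 0.31 ± 0.05 (adjusted p = 0.00111), while Blcap, in whose intron Nnat lies, differed by -0.06 and Magel2, next to Ndn, by 0.12, with neither called.

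Mest had 11.51, 11.55 and 11.50 with ATRA and 11.94, 12.08 and 11.97 with DMSO, with no overlap. It fell by 0.47 with an SE of 0.06 (adjusted p = 0.000154), while its neighbour Copg2 differed by -0.11 (adjusted p = 0.222). Ppp1r9a had 8.70, 8.73 and 8.72 with ATRA, against 9.05, 9.14 and 9.07 with DMSO, a difference of -0.37 ± 0.05 (adjusted p = 0.000161). Peg10, in the same cluster, fell by 0.23 with an SE of 0.04 (adjusted p = 0.00267), at levels near 13 where array values can be compressed. Sgce, which starts beside Peg10, had 10.32, 10.26 and 10.21 with ATRA and 10.46, 10.32 and 10.42 with DMSO, with all ATRA arrays below all DMSO arrays by a margin under the rounding of these values (-0.14 ± 0.10, adjusted p = 0.411).

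Several genes that had changed in day 4 EBs were not called with ATRA. Igf2 had 9.52, 9.52 and 9.44 with ATRA and 9.80, 9.56 and 9.82 with DMSO; the groups did not overlap, and the difference was -0.23 ± 0.09 (adjusted p = 0.105). It was called without DMSO replicate 2, at -0.31 (adjusted p = 0.0368), and Peg3 without ATRA replicate 1, at -0.20 (adjusted p = 0.0355). Airn (7.28, 7.23 and 7.19 with ATRA and 7.31, 7.34 and 7.26 with DMSO) and Igf2r differed by -0.07 and -0.09. Grb10 had 10.95, 10.92 and 10.99 with ATRA and 10.96, 11.04 and 10.87 with DMSO, and Trappc9 had 9.87, 9.88 and 9.87 with ATRA and 9.81, 9.95 and 9.98 with DMSO; the groups overlapped for both. Phlda2 had 11.98, 12.08 and 12.01 with ATRA and 11.93, 11.96 and 11.79 with DMSO, and Osbpl5 had 8.02, 8.03 and 7.95 with ATRA and 7.95, 8.04 and 7.995 with DMSO.

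Marker lists moved with ATRA as well. Of the 13 endoderm markers 1 was higher (Gata6) and 5 lower (among them Dab2, Hnf4a and Ttr), with medians of 10.19 to 10.33 with ATRA, against 10.53 to 10.76 with DMSO. Of 7 ES cell markers 3 were lower, Zfp42, Klf4 and Sox2, and 4 not called. The median level, again that of Sox2, was 12.76 to 12.86 with ATRA, against 12.997 to 13.038 with DMSO. The median log2 difference of the 7 was -0.13. Of 10 trophoblast markers Tfap2c was higher (0.83) and Krt8 lower (-0.20), with medians of 7.79 to 7.87 with ATRA, against 7.64 to 7.69 with DMSO. Of 8 neural markers Pax6 (0.70) and Elavl3 (0.55) were higher and Map2 (-0.42) lower, with medians of 8.06 to 8.21 with ATRA, against 7.88 to 7.93 with DMSO. Of 14 fibroblast markers 2 were higher, Pdgfrb by 1.497 most, and 3 lower (Dcn, S100a4 and Thy1), with medians of 8.19 to 8.25 with ATRA, against 8.21 to 8.26 with DMSO. Of 8 mesoderm and blood markers Pecam1 was higher (0.73) and Cdh5 lower (-0.30), with medians of 7.31 to 7.36 with ATRA, against 7.28 to 7.34 with DMSO. Their part in the changes of Ascl2, Cdkn1c, Nnat, Ndn or the other genes was not tested.

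ATRA-treated EBs were also set against day 4 EBs, a comparison that shares its ATRA arrays with that against DMSO and its EB arrays with that against ES cells. There 10 of 31 genes were called, 3 higher and 7 lower, against 18.4% of all genes (7.79% higher and 10.6% lower), and for 17 of 31 genes the arrays did not overlap, against 36.7%. Ascl2 had 7.54, 7.72 and 7.65 with ATRA and 8.29, 8.35 and 8.55 in day 4 EBs (-0.76 ± 0.08). Ppp1r9a had 8.70, 8.73 and 8.72 with ATRA and 9.20, 9.32 and 9.25 in day 4 EBs (-0.54 ± 0.05). Neither gene's groups overlapped. Mest (-0.47), Slc22a18 (-0.33), Tspan32 (-0.31), Cd81 (-0.26) and Peg10 (-0.25) were also lower, and Ndn (0.38) and Nnat (0.30) higher. Usp29 was higher by 0.41 ± 0.10 (adjusted p = 0.0131), a call lost without EB replicate 1 (0.37, adjusted p = 0.0524) or ATRA replicate 1 (0.33, adjusted p = 0.061). Cdkn1c differed by 0.26 ± 0.09 and was not called (adjusted p = 0.0595). It was called without DMSO replicate 2 (adjusted p = 0.0299), without DMSO replicate 3 (adjusted p = 0.0423), and with quantile normalization, the filter on low values or the intensity trend (adjusted p = 0.0357, 0.0204 and 0.0185). Airn, at 0.17 (adjusted p = 0.0805), was called without ES replicate 1 (adjusted p = 0.0312).

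Day 4 EB against ES and ATRA against DMSO share no arrays. Called in both were 6 of the genes: Ascl2, Slc22a18, Cd81 and Ppp1r9a were higher in day 4 EBs and lower with ATRA, Ndn was lower in day 4 EBs and higher with ATRA, and Cdkn1c was higher in both. Opposite directions thus made up 5 of 6, or 83.33%, against 76.75% of the 1768 genes called in both among all genes, a share near the background. The other calls were split, 14 genes in day 4 EBs and 5 with ATRA.

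**Figure D5:**
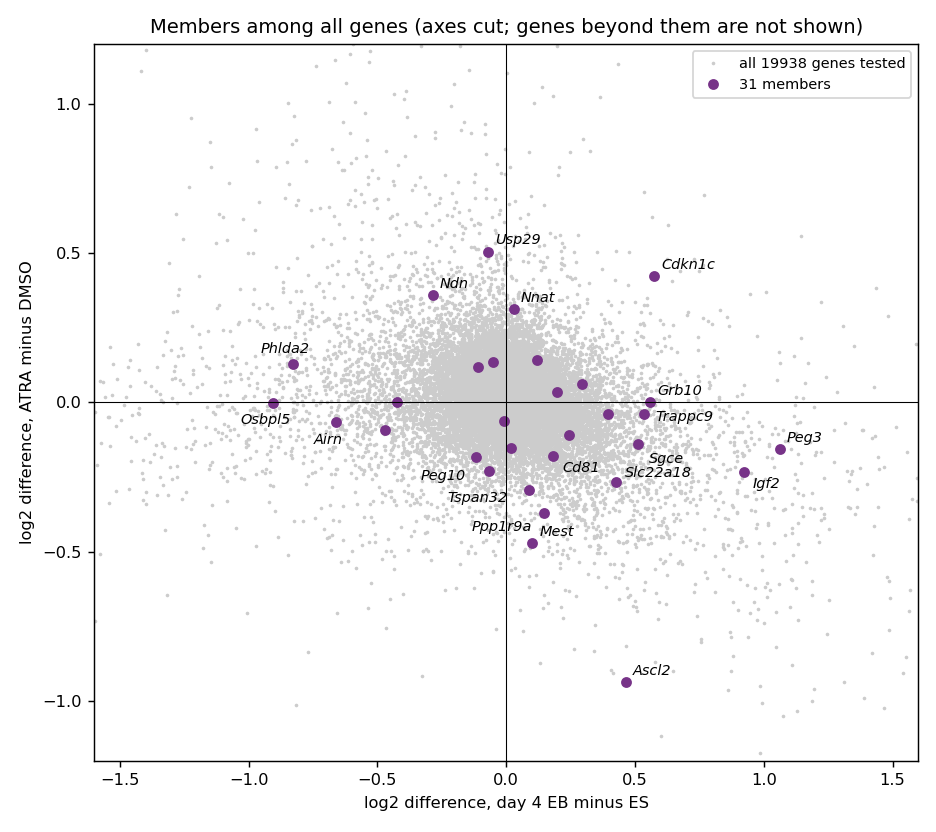
Log2 difference of day 4 EB minus ES (horizontal) against that of ATRA minus DMSO (vertical), for the 31 imprinted genes over all 19938 genes tested, with genes beyond the axes not shown. Cdkn1c lies at 0.58 and 0.42, Ascl2 at 0.46 and -0.94, and Peg3 at 1.06 and -0.16.

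Grouped by the parental copy known to be expressed where a gene is imprinted, 14 tested genes are paternal, 13 maternal and 4 mixed. The class of a gene need not hold in every tissue. Which copy was expressed in these cells was not measured. In day 4 EBs 5 paternal genes were higher and 3 lower than in ES cells, against 7 higher and 3 lower among the maternal genes; of all genes 34.7% were called there. With ATRA 3 paternal genes were higher and 2 lower than with DMSO, against 1 higher and 5 lower among the maternal genes, where 4 of the 5 lie in the Kcnq1ot1 domain; of all genes 13.3% were called. Of the 4 mixed genes 2 were higher in day 4 EBs, and 0 were called with ATRA. No difference between these classes was tested.

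Genes that keep or read imprints were followed as a list of 14. In ATRA against DMSO 2 of them (14.29%) were called, against 13.3% of all genes. In day 4 EBs against ES cells 4 (28.57%) were called, against 34.7% of all genes. With ATRA, Dnmt3l, the cofactor of the DNA methyltransferases that set imprints in the germ line, was lower than with DMSO (-1.12 ± 0.05, adjusted p = 2.09e-08), and Mbd3, a subunit of the NuRD complex, was higher by 0.18 ± 0.05 (adjusted p = 0.0208). Dnmt3l was also higher with DMSO than in day 4 EBs (0.33 ± 0.05, adjusted p = 0.0130), and with ATRA it was lower than in day 4 EBs (-0.79 ± 0.05). Against day 4 EBs, which share the ATRA arrays, Zfp57 (-0.20) and Zfp445 (-0.22), zinc finger proteins that keep imprints methylated, were lower with ATRA too, and Mbd3 was higher (0.15). In day 4 EBs 4 were higher than in ES cells and 0 lower: Dnmt3l by 0.60, Arid4b by 0.34, Arid4a by 0.17 and Ctcf, the insulator protein of the Igf2 and H19 control region, by 0.12. The median difference of the list was 0.04 in day 4 EBs and -0.04 with ATRA, against -0.0004 and 0.0103 over all genes.

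Of 14 tested genes of the insulin-like growth factor axis, 10 changed in day 4 EBs, 4 higher and 6 lower than in ES cells. Of all genes 34.7% were called there, and 13.3% in ATRA against DMSO. Of 6 binding proteins of the growth factors 3 fell, Igfbp6 by 1.28, Igfbp3 by 1.09 and Igfbp4 by 0.82, and 1 rose, Igfbp2 by 0.57. The receptor substrate Irs1 fell by 0.83, while the substrate Irs2 and the insulin receptor gene Insr each rose by 0.42. With ATRA 2 were lower than with DMSO, the receptor Igf1r (-0.31 ± 0.06, adjusted p = 0.00348) and the ligand Igf1 (-0.32 ± 0.10, adjusted p = 0.0471), and 0 higher. The list's median was -0.05 in day 4 EBs and -0.03 with ATRA. The fibroblast markers given above fell in the same step as these 3 binding proteins, and their part was not tested.

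A further list held 26 tested genes taken as neighbours, with the 5 other genes along the Kcnq1ot1 domain among them. In day 4 EBs 12 of the 26 changed, 5 higher and 7 lower, against 34.7% of all genes. The smallest adjusted p in limma were those of Lsp1 (-1.09), Atp10a (-0.55), B3gnt2 (0.53) and Pon2 (-0.44). With ATRA 2 were lower than with DMSO, B3gnt2 (-0.42) and Atp10a (-0.23), and 0 higher, against 13.3% of all genes called.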

How the data were processed

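Total RNA was extracted with RNeasy kits and made into biotinylated cDNA with the Ambion WT Expression kit, per the labels' protocols. The authors deposited log2 values for 35556 probe sets on 12 arrays; that the base is 2 is inferred from their span (2.30 to 14.7). How background, normalization and summarization were handled is not given in the sources used here. Array medians lay between 7.76 and 7.86 and replicates correlated at 0.992 to 0.997, and such matched distributions hide a change of total RNA per cell. Of the probe sets, 21789 had 1 symbol in the platform annotation, 1621 had several and 12146 were unlisted; 21698 gene identifiers were found in the RefSeq table of GRCm38.p6, with 0 symbols changed. Where a gene had several single-symbol probe sets, that of highest average signal stood for it; each imprinted gene had 1. No level was compared between probe sets.

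Group means were fitted to all 12 arrays with lmFit and eBayes of limma 3.58.1 (R 4.3.3), which left 8 residual degrees of freedom and gave a prior of 3.93. Tests were two-sided, p-values were adjusted by Benjamini-Hochberg across 19938 genes with no filter, and genes under 0.05 were called. The script was tested on simulated data. With 3 arrays a group, their number limits the precision. The genes and lists were chosen with earlier results of these data known. Values in every array are given for genes called with a difference of at least 0.5 on the log2 scale. For Mest, which stayed under 0.5, the values with ATRA and DMSO are given too. Other genes are given by counts, ranges and differences, and at most 4 called genes per list and comparison. Igfbp2, Irs2, Insr and the genes shown along the Kcnq1ot1 domain were added after their values were seen. Marker genes are named likewise. Promoter windows were searched as strings. The alternatives were quantile normalization, median centring, a filter on low values, averaging a gene's probe sets, a robust prior with an intensity trend, weights per array, a fit of only the 2 groups, the replicate number as a block, and leaving out arrays.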

Additional observations from a re-analysis of the deposited data

How the results depend on the processing

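Of 124 differences (31 genes in 4 comparisons) 41 were called, and 0 of these changed direction under the alternatives run. Several alternatives could not change a direction, since they leave the difference itself as it was. These were the filter, the trend, the fit of only 2 groups, the replicate block, averaging probe sets and leaving out arrays of other groups. Of 2556 alternative values 19 lost a call and 30 gained a call. Leaving out 1 array gave 9 to 11 called genes for ATRA against DMSO (11 with all arrays), 0 to 1 for DMSO against day 4 EB (0), 18 to 20 for day 4 EB against ES (20) and 9 to 11 for ATRA against day 4 EB (10). For DMSO against day 4 EB, median centring gave 1 (Peg3, adjusted p = 0.0464), the intensity trend 1 (Peg3, adjusted p = 0.0117) and the filter on low values 2 of 19 (Peg3 and Ppp1r9a, adjusted p = 0.0117 and 0.029); the filter tests fewer genes, and the other causes were not tested. With ATRA against DMSO, Igf2 was called with the filter, the trend and array weights (adjusted p = 0.0441, 0.0476 and 0.032), and Peg3 with these (adjusted p = 0.0191, 0.0276 and 0.018) and with median centring (adjusted p = 0.0325). In day 4 EBs against ES, Kcnk9 was called with quantile normalization and median centring (0.17 and 0.18), Tspan32 with median centring (0.15), Mest with array weights (0.17) and Nap1l5 without ES replicate 1 (-0.18), while Mkrn3 lost its call with array weights (0.14) and Ppp1r9a when only the 2 groups were fitted (0.15). In ATRA against day 4 EB, the filter and the trend also called Cdkn1c, Phlda2 and Plagl1, quantile normalization Cdkn1c and array weights Plagl1. Without the arrays of narrowest spread (ES replicate 2 and EB replicate 2), 11, 0, 18 and 10 genes were called in ATRA against DMSO, DMSO against day 4 EB, day 4 EB against ES and ATRA against day 4 EB. Over all genes, ATRA against DMSO called 4311 with array weights (2655 in the reported fit), and DMSO against day 4 EB called 256 with quantile normalization, 761 with the filter, 626 with the trend, 25 with only the 2 groups, 62 with the replicate block and 27 without the narrowest arrays (149). Median centring moved the share of higher calls to 66.15% in day 4 EB against ES (51.38%) and to 82.94% in DMSO against day 4 EB (71.81%), with the median difference of all genes within 0.0605 of 0 at each scaling. Same-numbered arrays deviated together weakly between most groups (correlations of -0.126 to 0.506, 2 of 18 over 0.1). Those 2 were both between day 4 EB and ES, at 0.303 for replicate 1 and 0.506 for replicate 2, with -0.065 for replicate 3. The numbers were not taken as pairs. With the replicate block 11, 0, 20 and 10 genes were called in the same order.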

Other observations

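Of 19 other tested imprinted genes, 10 changed in day 4 EBs against ES cells, 4 higher and 6 lower. In ATRA against DMSO 5 changed, 2 higher and 3 lower. Of all genes, 34.7% and 13.3% were called in these comparisons. Dcn, the gene of the matrix proteoglycan decorin, which is also on the fibroblast marker list, was lower in day 4 EBs (-1.78 ± 0.06, adjusted p = 6.96e-10 in limma) and lower with ATRA than with DMSO (-0.41 ± 0.06, adjusted p = 0.000797). Ano1, a calcium-activated chloride channel gene, was higher with ATRA than with DMSO (0.82 ± 0.07, adjusted p = 1.07e-05). Slc38a4, an amino acid transporter gene, was higher with ATRA (0.25), and Mcts2 was lower (-0.23). In day 4 EBs the serotonin receptor gene Htr2a (-0.64) and the signal peptide peptidase gene H13 (-0.36) were lower than in ES cells, and Zdbf2 was higher (0.48). No gene of this list was called between DMSO-treated and day 4 EBs (0 of 19).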
